A study of Mus musculus with 12 samples.

Results

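The genes described here are those of neurotransmitter receptors, ion channels and synaptic vesicle fusion measured in the brains of 10-day-old mice with and without Gja9. The rule for membership reads the gene symbol: of the probes with values in all 12 samples and 1 gene in the probe table, cDNA clones of the same gene were averaged and the symbols of these families were kept. This gave 60 genes on 77 clones, out of 9514 features measured in all (6427 genes, with the remaining probes, which lack a single gene name, kept apart). A further 37 symbols of these families are on the array without values, and no metabotropic glutamate, acetylcholine, adrenergic or glycine receptor is among the 60. A few genes entered through their symbol although their products are not receptors, channels or vesicle proteins: Htra2 encodes a mitochondrial protease, Trpc4ap a channel-associated protein, and Stx5a, Stx7, Stx8, Stx12, Stx16 and Stx18 encode fusion proteins of the Golgi apparatus, endosomes or endoplasmic reticulum.

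Chemical synapses release transmitter when calcium enters the nerve terminal through voltage-gated calcium channels, is sensed by synaptotagmins, and triggers vesicle fusion by the SNARE proteins (synaptobrevins on the vesicle, syntaxins and SNAP proteins on the target membrane), which NSF then takes apart. Receptors on the receiving cell either open an ion channel themselves or, like the dopamine and serotonin receptors below, act through G proteins, and potassium channels shape the spikes that follow. Electrical synapses pass current directly through gap junctions instead, and in mammalian neurons these are built mainly from connexin36, the product of the gene called Gja9 here and now named Gjd2.

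The groups were Gja9_null mice, which lack both copies of Gja9, Gja9_het mice, which lack 1 copy, and wildtype mice, with 4 biological replicates per genotype. All are labelled C57Bl/6j and were killed at postnatal day 10. The labels do not give the tissue driver, if any, of the deletion or the litters. RNA was taken from the brain, so each value averages over its regions and cell types. Each of the 6 spotted cDNA arrays held 2 samples of the same genotype in different dyes, so a genotype lies on 2 arrays, samples 1 and 2 being taken as the first and samples 3 and 4 as the second from how they correlate. Values are log2 signals relative to the mean signal of the sample, and differences are given as log2 differences ± SE.

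The 4 members with the smallest unadjusted p in the F-test over the 3 genotypes were Htr7, Drd5, Stx3 and Ache, and the 250 bases before the annotated start of each are shown because these genes carry the results below. The sequences are those of RefSeq on GRCm38.p6, written 5′ to 3′ along the gene's strand, with matches to the GC box, GGGCGG or its reverse CCGCCC, in capitals.
Htr7 chr19:36057361-36057610 (minus strand): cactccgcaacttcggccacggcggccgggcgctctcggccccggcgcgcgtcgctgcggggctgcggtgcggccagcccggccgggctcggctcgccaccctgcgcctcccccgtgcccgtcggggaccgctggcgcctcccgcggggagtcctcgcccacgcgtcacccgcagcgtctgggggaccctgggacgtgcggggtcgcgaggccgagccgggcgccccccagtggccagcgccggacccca
Drd5 chr5:38319259-38319508 (plus strand): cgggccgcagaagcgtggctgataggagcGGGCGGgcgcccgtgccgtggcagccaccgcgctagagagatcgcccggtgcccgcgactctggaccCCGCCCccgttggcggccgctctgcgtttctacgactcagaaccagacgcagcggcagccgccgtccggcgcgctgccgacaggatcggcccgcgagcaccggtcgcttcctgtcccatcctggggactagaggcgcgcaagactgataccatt
Stx3 chr19:11819404-11819653 (minus strand): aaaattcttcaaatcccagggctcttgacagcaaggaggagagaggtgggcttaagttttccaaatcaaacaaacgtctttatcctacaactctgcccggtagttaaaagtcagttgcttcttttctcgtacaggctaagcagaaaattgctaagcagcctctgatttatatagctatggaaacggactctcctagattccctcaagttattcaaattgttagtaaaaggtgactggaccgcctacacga
Ache chr5:137288004-137288253 (plus strand): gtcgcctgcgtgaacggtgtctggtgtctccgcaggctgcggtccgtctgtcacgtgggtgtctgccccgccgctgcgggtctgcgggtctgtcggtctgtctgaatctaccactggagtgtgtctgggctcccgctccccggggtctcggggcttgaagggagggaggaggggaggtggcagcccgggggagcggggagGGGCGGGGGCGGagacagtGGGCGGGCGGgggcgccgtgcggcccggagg
Ache held 4 GC boxes, with overlapping matches counted separately, Drd5 held 2, and Htr7 and Stx3 held 0. On either strand, 32.9% of 27025 mouse promoter windows of this length hold a GC box. Of the 60 genes, 48 matched this table, and 58.3% of them hold one. CCAAT or ATTGG was in 18.8% of the 48, against 34.5% of all windows, and in none of the 4 shown. Only Stx3 of the 4 held TATAAA or TTTATA, which 13% of all windows hold and 4.17% of the 48. None of the 4 held the cAMP response element TGACGTCA, found in 1.62% of all windows. The G+C content was 82.0% for Htr7, 71.2% for Drd5, 73.6% for Ache and 42.0% for Stx3, where the median over all windows was 52.0%. These matches describe the sequences only.

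The samples taken as 1 array correlated at 0.986 to 0.991 across probes. Since array membership was read from such likeness, this describes the samples and tests nothing. For the 60 genes, the median absolute gap between the arrays of a genotype was 0.40 log2 units in Gja9_null, 0.29 in Gja9_het and 0.34 in wildtype, against 0.43, 0.28 and 0.36 over all features in the same order. The probe table names no probe for Gjd2, so the genotype was not checked by the targeted gene. Of 13 neuron markers, 6 have values in all samples (Tubb3, Map2, Nefl, Nefm, Elavl4 and Uchl1). The median of these 6 was 0.07 in Gja9_null and -0.05 in Gja9_het against wildtype, and -0.14 between Gja9_null and Gja9_het. Across 11 marker lists of brain cell types and adjoining tissues, 32 of 72 genes were measured and 0 passed the limma test in any comparison. Their list medians between Gja9_null and wildtype ran from -0.67 (oligodendrocyte, 4 genes) to 0.50 (choroid plexus, Ttr alone), with interneuron markers at -0.53 (4 genes). The astrocyte list stood at 0.36 in Gja9_null and -0.32 in Gja9_het against wildtype, and at only 0.11 between Gja9_null and Gja9_het. The summed signal of its 4 measured genes (Slc1a3, Fabp7, Aldoc and Gja1, with Gfap and Aqp4 not among them) was 13.1 to 15.6 times the sample mean in Gja9_null, 8.82 to 11.3 in Gja9_het and 8.21 to 11.6 in wildtype, so that Gja9_null overlapped neither. Bright genes weigh most in such a sum. Slc1a3 alone stood at 1.39 ± 0.31 between Gja9_null and Gja9_het, far from the list median of 0.11, so the sum does not describe the whole list. The part of these lists in the results below was not tested.

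Complete loss of Gja9 was compared with wildtype to see which of these transcripts differ without the connexin. Htr7, which encodes a serotonin receptor coupled to cAMP synthesis, fell by 1.57 ± 0.29 log2 units in Gja9_null brains, to 0.338 times the wildtype level, and it was the 1 member of 60 that passed (adjusted p = 0.0372, limma with Benjamini-Hochberg adjustment over all 9514 features). That is 1.67% of the members, where 0.326% of all features passed. The next lowest unadjusted p values belonged to Ache, Stx3, Stx2 and Syt3, all with lower values in Gja9_null, and to Kcnip3 with a higher one. Stx3, Stx2 and Syt3 lie among the dimmest 25% of features by mean signal. At an unadjusted p under 0.05 there were 6 members (10%), against 11.6% of all features. Of these, 1 was higher and 5 were lower, where 2.41% of all features were higher and 9.22% lower. The median difference over the members was -0.08, against -0.10 over all features, and 55.0% of members lay below 0, against 58.9%. The sign of 19 members turned under at least 1 scaling, namely Cacna1h, Cacna2d3, Cacng4, Clcn4, Clcn5, Gria3, Kcnc4, Kcnd3, P2rx3, Scn2b, Snap47, Stx12, Stx4a, Stx7, Stx8, Sypl, Syt13, Syt3 and Trpc2.

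**Figure D1:**
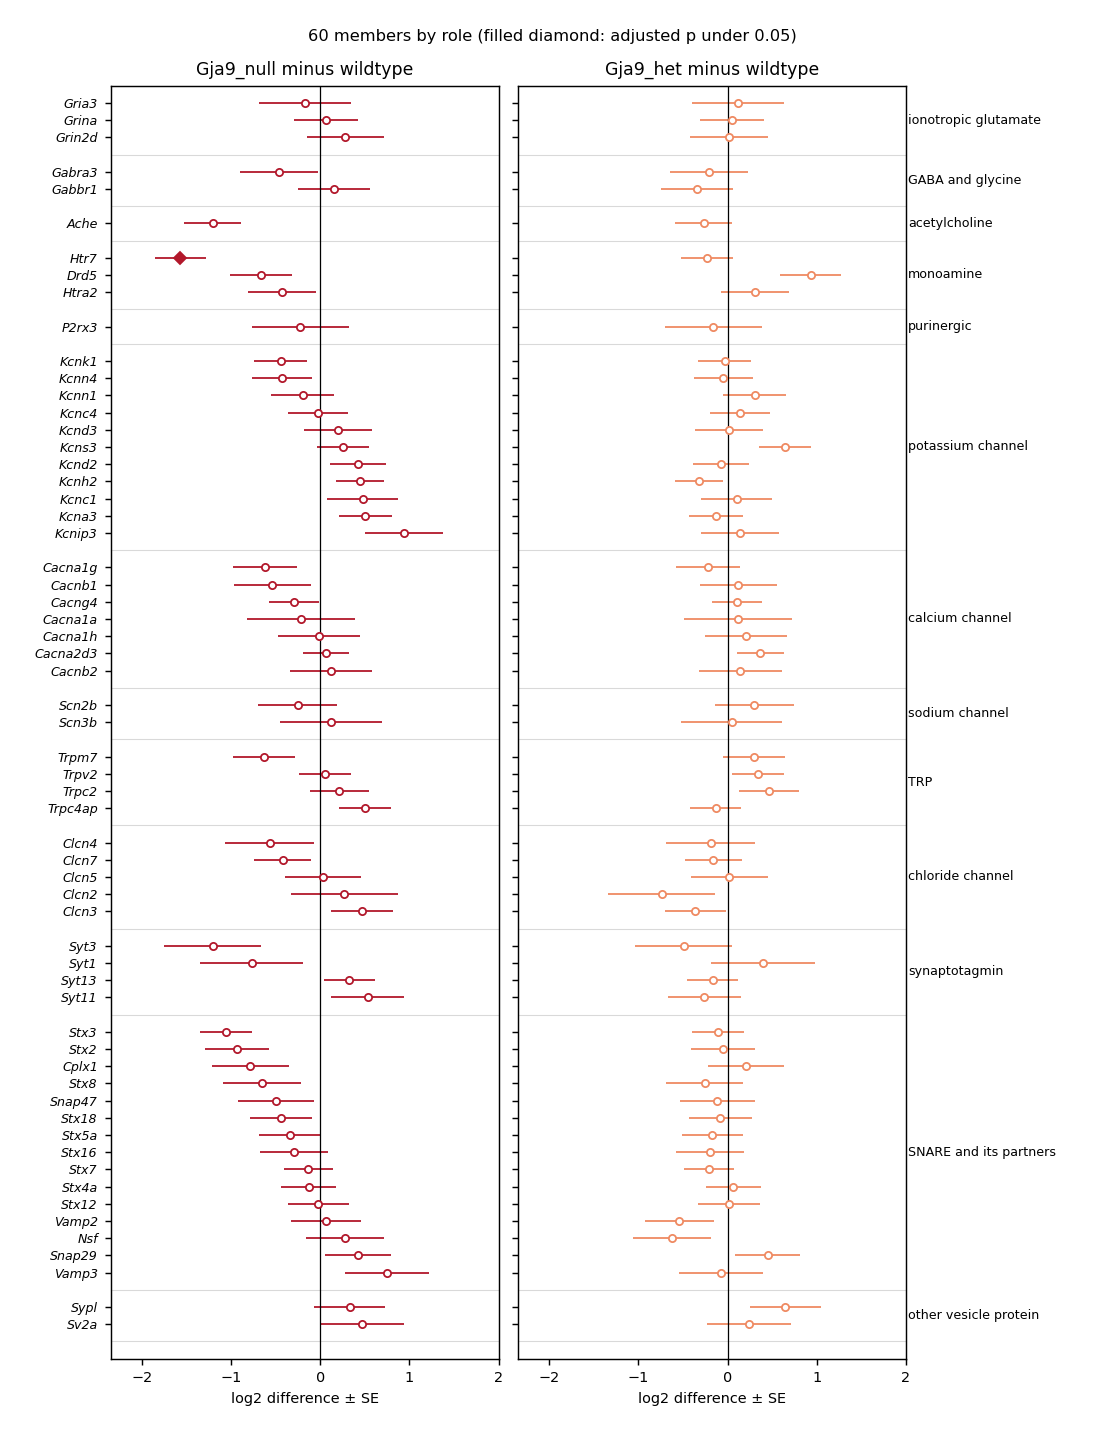
Log2 difference ± SE of each of the 60 genes, by role, for Gja9_null minus wildtype (left) and Gja9_het minus wildtype (right), with 4 samples on 2 arrays per genotype. Values on the left run from -1.57 (Htr7, the filled diamond, adjusted p under 0.05) to 0.94 (Kcnip3), and no gene on the right passed.

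In 16 members (26.7%), all 4 Gja9_null samples lay on the same side of all 4 wildtype samples, which held for 23.1% of all features (7.52% higher and 15.6% lower). The 6 higher ones were the potassium channel genes Kcna3, Kcnc1, Kcnd2 and Kcnh2, with Snap29 and Syt11. The 10 lower ones were Ache, Htr7, Cacng4, Kcnk1, Kcnn4, Trpm7, Stx18, Stx2, Stx3 and Syt3, of which Cacng4 and Syt3 turned sign after centring along the probe numbers. The shares stand close to those of all features, so these counts do not set the members apart.

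Loss of 1 copy was examined by setting Gja9_het against wildtype, with the same wildtype samples as above. No member passed, and 0.0% of all features did (limma with Benjamini-Hochberg adjustment). At an unadjusted p under 0.05 there were 2 members, both with higher values in Gja9_het: Drd5, a dopamine receptor, at 0.93 ± 0.35 and Kcns3, a modulatory potassium channel subunit, at 0.64 ± 0.29. That is 3.33% of the members, against 2.19% of all features (1.67% higher and 0.515% lower). The median over the members was -0.01, with 30 below 0 and 30 above, and the median over all features was 0.03. The groups did not overlap for 7 members (11.7%, against 14.8% of all features, 8.67% higher and 6.09% lower), namely Cacna2d3, Drd5, Kcns3, Snap29, Trpc2 and Trpv2 with higher values and Kcnh2 with lower ones.

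Gja9_null was also set directly against Gja9_het. By the same limma test 0 members passed, where 0.273% of all features did (0.0105% higher and 0.263% lower), and the smallest adjusted p, 0.0723, was shared by Drd5 and Htr7. At an unadjusted p under 0.05 there were 10 members (16.7%, against 15.0% of all features). Of these 10, Kcnh2, Clcn3 and Trpc4ap were higher in Gja9_null, and Drd5, Htr7, Ache, Stx2, Stx3, Cplx1 and Trpm7 were lower, where 3.64% of all features were higher and 11.3% lower. The median over the members was -0.23 and over all features -0.17. The groups did not overlap for 21 members (35.0%, against 32.7% of all features), 9 with higher values in Gja9_null and 12 with lower ones, where 10.2% of all features were higher and 22.5% lower.

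The F-test over the 3 genotypes passed 1 member, Htr7 (limma, adjusted p = 0.0476), and 0.326% of all features. The mean of Gja9_het lay between the means of Gja9_null and wildtype for 25 members (41.7%), against 34.5% of all features. It lay above both for 22 members (36.7%, against 41.5%) and below both for 13 (21.7%, against 24.0%).

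Among the receptors, the 2 G protein-coupled amine receptors had the largest differences in both comparisons with Gja9_null. Htr7 had values of -2.01, -2.33, -2.53 and -2.57 in Gja9_null samples 1 to 4, of -0.98, -1.13, -0.89 and -1.09 in Gja9_het samples, and of -0.89, -0.98, -0.56 and -0.74 in wildtype samples. All 4 Gja9_null samples were below every other sample, while the Gja9_het and wildtype samples overlapped. Between samples of the same number, Gja9_het stood -0.08, -0.16, -0.32 and -0.35 from wildtype, lower in 4 of 4. Samples 1 and 2 were taken as 1 array and 3 and 4 as the other, so the 4 values largely repeat 2 contrasts between arrays. Whether the numbers mark a shared batch is not known. Such agreement of all 4 numbers held for 31.7% of the members, Ache, Stx3, Clcn3 and Kcnh2 among them, and for 36.9% of all features. The means were -2.36 ± 0.25 in Gja9_null, -1.02 ± 0.11 in Gja9_het and -0.79 ± 0.18 in wildtype (SD, n = 4 samples on 2 arrays). Gja9_het differed from wildtype by -0.23 ± 0.29 and Gja9_null from Gja9_het by -1.34 ± 0.29 (limma adjusted p = 1 and 0.0723). The last of these passed without the first Gja9_null array (-1.53, adjusted p = 0.0291) and without the second (-1.15, adjusted p = 0.0359). Each of those fits holds only the other Gja9_null array. The spread between the Gja9_null arrays then does not enter the error, so these passes do not show that the difference is stable. In whole brain, fewer cells with this receptor and less of its RNA per cell cannot be told apart.

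**Figure D2:**
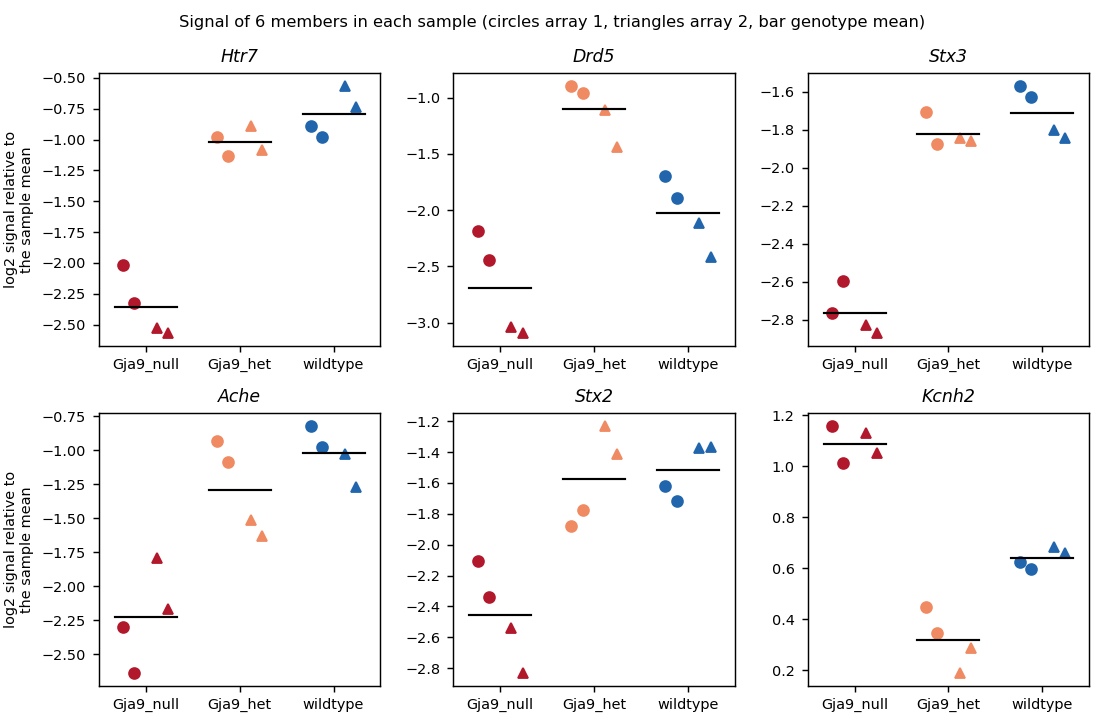
Log2 signal relative to the sample mean in each of the 12 samples for Htr7, Drd5, Stx3, Ache, Stx2 and Kcnh2, with circles for array 1, triangles for array 2 and a bar at the genotype mean. The 4 Gja9_null samples of Htr7 lie between -2.57 and -2.01 and the others between -1.13 and -0.56, while the 4 Gja9_het samples of Drd5 lie above all others.

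The call for Htr7 was sensitive to the model. It was lost when the colours of each array were averaged (adjusted p = 0.138), when only the 2 genotypes entered the fit (0.218), when samples were centred along the probe numbers (-1.26, adjusted p = 0.0690) or when any 1 sample other than Gja9_null 1 was left out (0.0503 to 0.0796). Htr7 rests on 1 clone, and 36 of the 51 probes numbered within 50 of it were also below 0 in Gja9_null, with a median of -0.31. Of these probes, 3 were lower than Htr7.

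**Figure D3:**
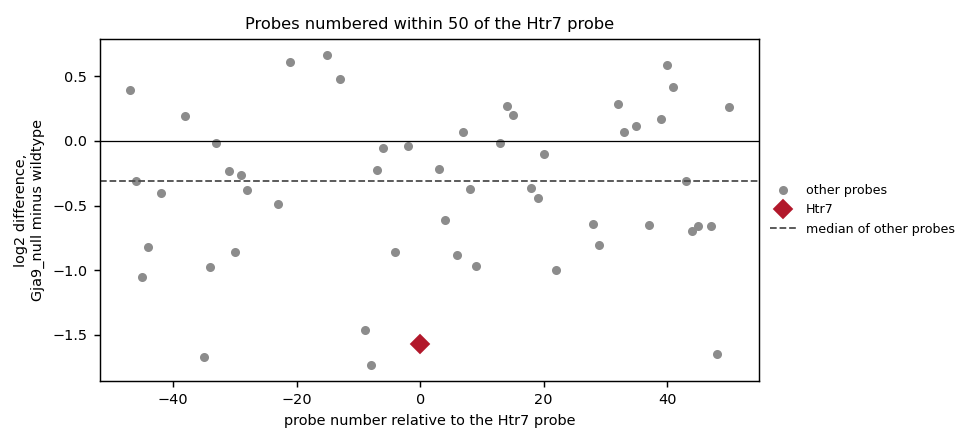
Log2 difference of Gja9_null minus wildtype for the Htr7 probe (diamond) and the 51 probes numbered within 50 of it, against the probe number relative to Htr7. The dashed line is the median of the other probes at -0.31, and 3 of them lie below Htr7 at -1.57.

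Drd5 encodes a dopamine receptor that, like Htr7, raises cAMP. It lies among the dimmest 25% of features by mean signal. Its values were -2.18, -2.44, -3.04 and -3.09 in Gja9_null, -0.89, -0.96, -1.11 and -1.44 in Gja9_het, and -1.69, -1.89, -2.11 and -2.42 in wildtype. The Gja9_het samples were above all others, and the Gja9_null and wildtype samples overlapped. The differences were -0.66 ± 0.35 for Gja9_null and 0.93 ± 0.35 for Gja9_het against wildtype (limma unadjusted p = 0.0767 and 0.0176, adjusted p = 0.496 and 1). Gja9_null stood -1.59 ± 0.35 from Gja9_het (adjusted p = 0.0723), the largest difference of any member in any comparison. The 34 probes numbered around Drd5 had medians of -0.20 for Gja9_null against wildtype, 0.36 for Gja9_het against wildtype and -0.48 between the mutant genotypes. After centring along the probe numbers Drd5 stood at -1.06 between the mutant genotypes (adjusted p = 0.0890) and at 0.59 for Gja9_het against wildtype (unadjusted p = 0.0587). Between the mutant genotypes Drd5 passed with the replicate number as a block (-1.59, adjusted p = 0.0479). Samples of the same number did not deviate together between these genotypes (r = 0.01 to 0.05 across probes). Drd5 also passed without the first Gja9_null array (-1.97, adjusted p = 0.0277) and without the second (-1.21, adjusted p = 0.0465). Each of those fits holds only the other Gja9_null array, so the spread between the Gja9_null arrays does not enter the error. Without the first and the second array Drd5 in Gja9_null stood at -1.04 and -0.28 against wildtype, in this order. Htra2, the protease, stood at -0.43 ± 0.38 in Gja9_null and 0.31 ± 0.38 in Gja9_het.

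Ache encodes acetylcholinesterase, which breaks down acetylcholine and was the only gene of cholinergic transmission measured among the members. It had values of -2.30, -2.64, -1.80 and -2.17 in Gja9_null, -0.93, -1.08, -1.52 and -1.63 in Gja9_het, and -0.82, -0.98, -1.03 and -1.27 in wildtype. The Gja9_null samples were below all others, and the 2 arrays of Gja9_het lay apart. The difference from wildtype was -1.20 ± 0.32 in Gja9_null and -0.27 ± 0.32 in Gja9_het (limma adjusted p = 0.161 and 1). Of the 43 probes numbered around Ache, 40 were below 0 in Gja9_null, with a median of -0.46, and 0 were lower than Ache. Without the second Gja9_null array Ache passed, at -1.45 (adjusted p = 0.0217), and without the first it stood at -0.96 (adjusted p = 0.401). In either fit only the other Gja9_null array remains, so the spread between the Gja9_null arrays does not enter the error. After centring along the probe numbers Ache stood at -0.77 (adjusted p = 0.168).

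None of the glutamate receptor genes passed. Gria3, an AMPA receptor subunit, stood at -0.17 ± 0.51 in Gja9_null and 0.12 ± 0.51 in Gja9_het against wildtype, and Grin2d, an NMDA receptor subunit, at 0.28 ± 0.43 and 0.01 ± 0.43. Grina, named for a link with glutamate receptors but not a subunit of one, stood at 0.07 ± 0.36 and 0.04 ± 0.36. The smallest adjusted p of the 3 glutamate genes against wildtype was 0.868 (limma). The SE was 0.51 for Gria3 and 0.43 for Grin2d, so differences of that size in these subunits were not detectable.

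The inhibitory receptors were represented by Gabra3, a subunit of the GABA-gated chloride channel, and Gabbr1, a subunit of the G protein-coupled GABA receptor. Gabra3 stood at -0.46 ± 0.44 in Gja9_null and -0.21 ± 0.44 in Gja9_het against wildtype. Its wildtype arrays lay apart, with values of -1.40, -1.42, -0.62 and -0.62 in samples 1 to 4. Gabbr1 stood at 0.15 ± 0.40 in Gja9_null and -0.34 ± 0.40 in Gja9_het, and its Gja9_het values of -0.20, -0.22, 0.91 and 0.93 also split by array. P2rx3, an ATP-gated channel of sensory neurons, stood at -0.22 ± 0.54 and -0.16 ± 0.54. None of the 3 passed.

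The potassium channel group had 11 genes, 7 with higher and 4 with lower values in Gja9_null than in wildtype, a median of 0.26 and 0 that passed. Kcna3 stood at 0.51 ± 0.30, Kcnc1, of the channels that let neurons fire fast, at 0.48 ± 0.40, and Kcnd2, of the dendritic A-type current, at 0.43 ± 0.31. Kcnc4 stood at -0.02 ± 0.34 and turned sign with the scaling. The lower values were those of Kcnk1, a leak channel, at -0.44 ± 0.30, and of the calcium-activated channels Kcnn4, at -0.43 ± 0.33, and Kcnn1, at -0.19 ± 0.35. After centring along the probe numbers the group's median was 0.12, with 6 higher and 5 lower.

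Kcnh2, which encodes a channel of the ERG family, varied little within a genotype. Its values were 1.16, 1.01, 1.13 and 1.05 in Gja9_null, 0.45, 0.35, 0.19 and 0.29 in Gja9_het, and 0.62, 0.60, 0.68 and 0.66 in wildtype. The 3 genotypes did not overlap, with Gja9_null highest and Gja9_het lowest. Kcnh2 differed by 0.45 ± 0.27 in Gja9_null and -0.32 ± 0.27 in Gja9_het against wildtype, and by 0.77 ± 0.27 between Gja9_null and Gja9_het (limma unadjusted p = 0.0124, adjusted p = 0.212). The 52 probes numbered around it had a median of 0.41 in that last comparison, and Kcnh2 stood at 0.33 after centring along the probe numbers.

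Kcnip3 encodes a calcium-binding protein that associates with Kv channels and also acts on transcription. It had values of 0.19, 0.29, -0.30 and -0.02 in Gja9_null, -0.83, -1.03, -0.51 and -0.64 in Gja9_het, and -1.51, -1.53, -0.23 and -0.31 in wildtype. Its 2 wildtype arrays averaged -1.52 and -0.27, and the second overlapped the Gja9_null samples. The difference from wildtype was 0.94 ± 0.44 in Gja9_null and 0.14 ± 0.44 in Gja9_het (limma adjusted p = 0.428 and 1). Kcns3 had values of -0.29, -0.36, -0.28 and -0.46 in Gja9_het, against -0.95, -1.23, -0.72 and -1.06 in wildtype. Every Gja9_het sample was above every wildtype sample, and the difference of 0.64 ± 0.29 had a limma adjusted p of 1.

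The 7 calcium channel genes had a median of -0.22 in Gja9_null and 0.12 in Gja9_het against wildtype, and 0 passed. In Gja9_null 5 were lower, among them Cacna1g, of a low-threshold T-type channel, at -0.61 ± 0.36 and Cacnb1, a cytoplasmic auxiliary subunit, at -0.54 ± 0.43. Against Gja9_het all 7 were lower in Gja9_null as deposited, from -0.66 to -0.02, but 4 were lower and 3 higher after centring along the probe numbers. Cacna1a, the pore of the P/Q-type channel that drives transmitter release, had wildtype values of -0.10, 0.21, -1.93 and -1.70. Its gap of 1.87 between the wildtype arrays was the largest of any member in that genotype, and its differences from wildtype were -0.22 ± 0.61 in Gja9_null and 0.12 ± 0.61 in Gja9_het. Cacna2d3, an auxiliary subunit, had Gja9_het values of 0.91, 0.84, 0.98 and 0.89, against 0.36, 0.36, 0.71 and 0.73 in wildtype, a difference of 0.37 ± 0.26. Cacng4, of the family of auxiliary AMPA receptor subunits, stood at -0.29 ± 0.28 in Gja9_null, and at 0.26 after centring along the probe numbers, and its 2 clones gave -0.77 ± 0.39 and 0.19 ± 0.40.

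The sodium channel genes measured were both auxiliary subunits. Scn2b had values of -2.85, -2.87, -1.07 and -1.35 in Gja9_null, -1.17, -1.43, -1.65 and -1.69 in Gja9_het, and -1.50, -1.60, -1.86 and -2.17 in wildtype. The Gja9_null arrays lay 1.65 apart, the widest gap of any member in that genotype, on either side of the wildtype samples. The difference from wildtype was -0.25 ± 0.44 in Gja9_null and 0.30 ± 0.44 in Gja9_het. After centring along the probe numbers the Gja9_null value was 0.48. Scn3b stood at 0.12 ± 0.57 and 0.05 ± 0.57.

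Among TRP genes, Trpm7, a channel fused to a kinase, had values of -2.90, -2.49, -2.50 and -2.34 in Gja9_null, -1.54, -1.31, -1.84 and -1.86 in Gja9_het, and -2.00, -1.94, -1.92 and -1.86 in wildtype. The Gja9_null samples were below all others. The differences were -0.63 ± 0.35 from wildtype and -0.92 ± 0.35 from Gja9_het (limma adjusted p = 0.518 and 0.242). Its clones gave -0.37 ± 0.40 and -0.88 ± 0.49 against wildtype. In the same order they gave -0.35 ± 0.40 and -1.49 ± 0.49 against Gja9_het, so 1 clone carries most of that difference. Trpm7 stood at -0.28 from wildtype and -0.56 from Gja9_het after centring along the probe numbers. It lies among the dimmest 25% of features by mean signal. Trpc4ap stood at 0.50 ± 0.29 in Gja9_null against wildtype and 0.63 ± 0.29 against Gja9_het. Trpc2 and Trpv2 stood at 0.46 ± 0.33 and 0.34 ± 0.29 in Gja9_het, with every sample above the wildtype ones.

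Of the chloride channel family, Clcn2 forms a channel of the cell surface, and Clcn3, Clcn4, Clcn5 and Clcn7 are exchangers of endosomes and lysosomes. Clcn3 had values of 1.07, 1.31, 0.93 and 1.10 in Gja9_null, -0.15, -0.03, 0.57 and 0.71 in Gja9_het, and 0.20, 0.44, 0.99 and 0.91 in wildtype. Gja9_null was above all Gja9_het samples (0.83 ± 0.35, limma adjusted p = 0.286) and overlapped wildtype (0.47 ± 0.35). Clcn2 had Gja9_het values of -1.52, -1.60, -3.62 and -4.13, against -2.02, -2.12, -1.83 and -1.93 in wildtype. This gap of 2.31 between the Gja9_het arrays was the largest of any member in any genotype. The 2 Gja9_het arrays lay on opposite sides of wildtype, and the difference of -0.74 ± 0.60 did not pass.

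Among SNAREs and their partners, the most negative differences between Gja9_null and wildtype were those of Stx3 and Stx2, both syntaxins of the plasma membrane. Stx3 had values of -2.76, -2.60, -2.83 and -2.87 in Gja9_null, -1.71, -1.88, -1.85 and -1.86 in Gja9_het, and -1.57, -1.63, -1.80 and -1.84 in wildtype. All 4 Gja9_null samples were below every other sample, and those of the other genotypes overlapped. Stx3 stood at -1.05 ± 0.29 in Gja9_null and -0.11 ± 0.29 in Gja9_het against wildtype (limma unadjusted p = 0.00276 and 0.707, adjusted p = 0.168 and 1). Against Gja9_het the Gja9_null difference was -0.94 ± 0.29 (adjusted p = 0.165). The array gaps of Stx3, from 0.06 to 0.22, were among the smaller ones.

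Stx2 had values of -2.11, -2.34, -2.54 and -2.83 in Gja9_null, -1.88, -1.77, -1.23 and -1.41 in Gja9_het, and -1.62, -1.72, -1.37 and -1.36 in wildtype. Again the Gja9_null samples were below all others. The difference from wildtype was -0.94 ± 0.36 in Gja9_null and -0.05 ± 0.36 in Gja9_het (limma adjusted p = 0.335 and 1). Of the 45 probes numbered around Stx2, 35 were below 0 in Gja9_null, with a median of -0.38. After centring along the probe numbers Stx2 stood at -0.57 in Gja9_null against wildtype (limma adjusted p = 0.416). Stx4a, the other plasma membrane syntaxin measured, stood at -0.13 ± 0.31 in Gja9_null and 0.06 ± 0.31 in Gja9_het.

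**Figure D4:**
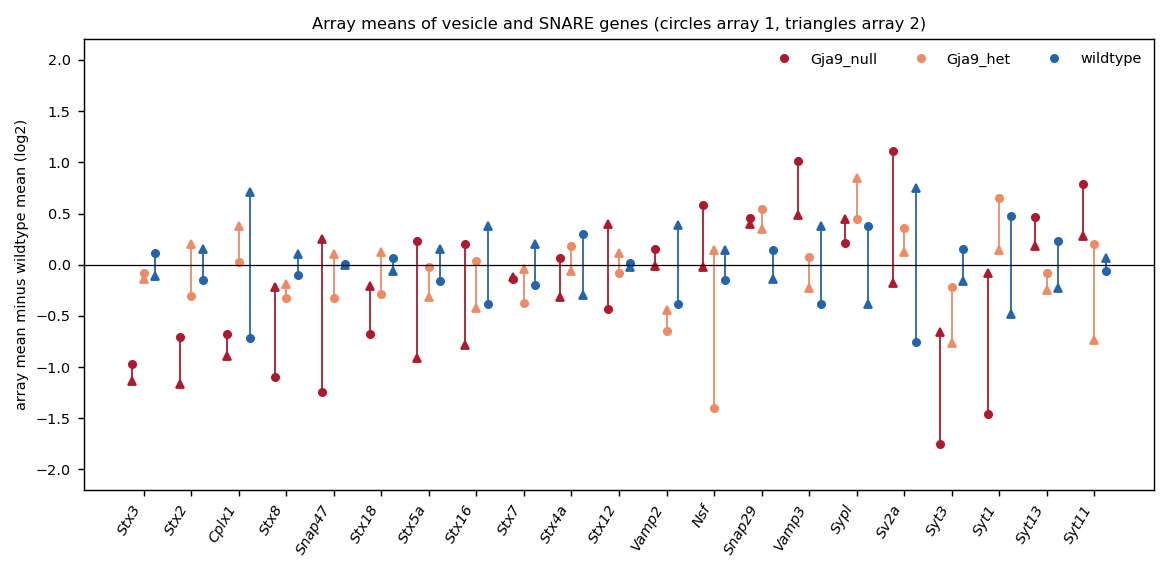
Array means of the 21 vesicle, SNARE and synaptotagmin genes relative to the wildtype mean (log2), with circles for array 1, triangles for array 2 and a line joining the arrays of a genotype. Both Gja9_null arrays of Stx3 and Stx2 lie below the other arrays, while the wildtype arrays of Cplx1 lie far apart, at -0.46 and 0.97 before the wildtype mean is subtracted.

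The 15 genes of SNAREs and their partners had a median of -0.29 in Gja9_null and -0.11 in Gja9_het against wildtype, with 11 lower and 4 higher in each, and 0 passed. The median in Gja9_null was -0.10 after quantile normalization and 0.01 after centring along the probe numbers, where 7 were lower and 8 higher. Vamp2, the synaptobrevin of synaptic vesicles, stood at 0.07 ± 0.39 in Gja9_null and -0.54 ± 0.39 in Gja9_het. Vamp3, a more widely expressed relative, stood at 0.75 ± 0.47 and -0.08 ± 0.47. Snap29 had higher values than wildtype in every sample of both mutant genotypes, at 0.42 ± 0.37 in Gja9_null and 0.45 ± 0.37 in Gja9_het. These 2 values share the same wildtype samples.

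Cplx1 encodes complexin, which clamps and promotes vesicle fusion. It had values of -0.58, -0.26, -0.84 and -0.43 in Gja9_null, 0.20, 0.36, 0.53 and 0.74 in Gja9_het, and -0.54, -0.38, 0.98 and 0.95 in wildtype. Gja9_null was below all Gja9_het samples but overlapped the first wildtype array. It stood at -0.98 ± 0.43 against Gja9_het and -0.78 ± 0.43 against wildtype (limma adjusted p = 0.306 and 0.518). Nsf, the ATPase that separates SNARE complexes, had Gja9_het values of 0.61, 0.67, 2.07 and 2.30, against 1.85, 1.94, 2.14 and 2.22 in wildtype. The first Gja9_het array was low and the second was not, and the difference was -0.63 ± 0.44.

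Of the synaptotagmins, Syt3 had values of -2.79, -3.31, -1.91 and -2.00 in Gja9_null, -1.62, -1.43, -1.92 and -2.22 in Gja9_het, and -1.21, -1.08, -1.53 and -1.39 in wildtype. The Gja9_null samples were below all wildtype samples, those of the first array most, and overlapped Gja9_het. The difference from wildtype was -1.20 ± 0.54 (limma adjusted p = 0.419), and probes numbered around Syt3 had a median of -1.36. After centring along the probe numbers Syt3 stood at 0.19, so its direction turned. Syt1, the calcium sensor of fast release, stood at -0.77 ± 0.58 in Gja9_null and 0.39 ± 0.58 in Gja9_het, with Gja9_null values of -1.40, -1.13, 0.12 and 0.10. Syt11 stood at 0.53 ± 0.41 in Gja9_null and -0.26 ± 0.41 in Gja9_het, and Syt13 at 0.32 ± 0.29 and -0.17 ± 0.29. Sv2a, a glycoprotein of synaptic vesicles, stood at 0.47 ± 0.47 and 0.24 ± 0.47, and Sypl, a relative of synaptophysin, at 0.33 ± 0.40 and 0.65 ± 0.40. None of these 6 genes passed.

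For 13 members more than 1 clone was measured, and the clones were often unlike. In Gja9_null against wildtype the clones had the same sign for 5 of the 13, and for Clcn7, Grina, Stx12 and Stx7 they spanned more than 1 log2 unit. Stx7, of the endosomal SNAREs, had 4 clones at -1.70 ± 0.40, 0.00 ± 0.33, 0.49 ± 0.47 and 0.68 ± 0.36, and their mean was -0.13 ± 0.28. The clone at -1.70 lay among probes with a median of -0.97. The 2 clones of Stx12, also endosomal, gave 0.71 ± 0.32 and -0.74 ± 0.53. Those of Kcnk1 (-0.43 and -0.45) and Htra2 (-0.43 and -0.42) were close. The other 47 members, Htr7, Drd5, Ache, Stx3 and Stx2 among them, rest on 1 clone. Clones of the same sign numbered 2 of 13 in Gja9_het against wildtype and 7 of 13 between Gja9_null and Gja9_het.

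**Figure D5:**
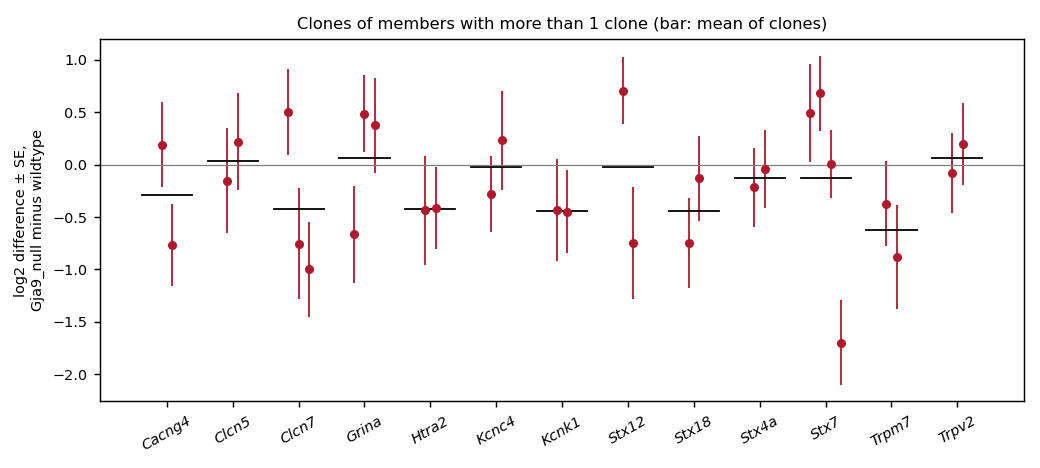
Log2 difference ± SE of Gja9_null minus wildtype for each clone of the 13 genes with more than 1 clone, each clone tested alone, with a bar at the mean of the clones. The 4 clones of Stx7 run from -1.70 to 0.68, while those of Htra2 and Kcnk1 nearly coincide.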

How the data were processed

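RNA of 12 mouse brain samples, 4 per genotype, was labelled with Cy5 (odd replicate numbers) or Cy3 (even), per the labels. The dye was taken from the label field, with which the labelling protocol of wildtype 3 and Gja9_null 1 conflicts. The authors deposited log2 signals relative to the mean signal of each sample, a scale read from the numbers, whose linear mean is 1 in every sample. Background, dye and weak-probe handling is not stated in the labels. Among the 28704 probes, 13443 have values in all samples and 15261 in none, and signal over background cannot be read from them. Genes were named through the array's probe table and updated from a RefSeq gene table (10263 of 10356 probes with 1 gene matched). Clones of a gene were averaged.

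Which samples shared an array is not stated. It was inferred by correlating sample 1 minus sample 3 with sample 2 minus sample 4 over the probes, which gave 0.933 for Gja9_null, 0.919 for Gja9_het and 0.940 for wildtype. Samples 1 and 2 were therefore taken as one array and samples 3 and 4 as the other. The study calls the samples of a genotype biological replicates without naming animals or litters, so p-values measure the spread between these samples and arrays.

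The two-sided test was limma's moderated one (lmFit, eBayes; limma 3.58.1, R 4.3.3), fitted to all 12 samples with terms for genotype and dye and a random block for the array, whose consensus correlation was 0.927. Benjamini-Hochberg adjustment ran over 9514 features, and an adjusted p under 0.05 passed. Genotype varies only between arrays, yet both colours of an array add to the degrees of freedom here, which they do not for array means. Local centring subtracts, in each sample, the median deviation over 50 probe numbers on either side. Tables were made with Python 3.11.15.

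Samples with the same replicate number deviated together between Gja9_het and wildtype (r = 0.13 to 0.24 across probes for the 4 numbers). They did not between Gja9_null and wildtype (-0.10 to -0.07) or Gja9_null and Gja9_het (0.01 to 0.05). By the rule that every pair exceeds 0.1, the numbers were treated as pairing Gja9_het with wildtype. Samples of an array are nearly alike, so the 4 values largely repeat the same contrast between arrays. They therefore cannot show whether the numbers mark a shared batch.

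Members named with values are every member called, the 5 higher and 5 lower of smallest p per comparison, up to 3 per role of smallest F-test p, and those whose clones differed by over 1 log2 unit. Kcnc1, Kcnc4, Kcnd2, Kcnk1, Kcnn1, Kcnn4, Cacna1a, Cacng4, Trpv2, Snap29, Stx4a and Syt13 were named after their values were seen. The members and lists were chosen with earlier results of these data known. Alternatives covered the array block, replicate block, dye, scaling, samples in the fit, dim probes, clones, the spread model and leaving out each sample or array. Array means with local centring, and the block with Gja9_het and wildtype alone, were added after seeing the data.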

Additional observations from a re-analysis of the deposited data

Results flagged for a closer look

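In 3 of the 180 groups of 4 samples (60 genes in 3 genotypes), 1 sample stood far from the other 3, the gap between the outermost sample and its nearest neighbour as a share of the group's range being above Dixon's critical value. For 4 independent samples chance alone gives about 1 such group in 20. The samples of an array are nearly alike here, so that rate does not apply to these groups. Gabra3 in Gja9_null had a share of 0.855, from sample 1 at -1.88 while the others lay between -1.39 and -1.30. Trpc2 in Gja9_het had a share of 0.891, from sample 4 at -0.99 while the others lay between -0.79 and -0.76. Kcnd2 in Gja9_het had a share of 0.88, from sample 1 at -0.64 while the others lay between -0.54 and -0.52. The cause of these 3 values was not tested.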

How the results depend on the processing

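The values of single genes under the alternatives were counted for part of the named genes and comparisons, not all. In that part 1691 kept their direction and side of the threshold, and 53 that passed in neither setting turned sign (35 of them by less than 1 SE). A further 22 passed where they had not, and 25 no longer passed. Outside that part, Stx2, Scn2b, Syt11 and Vamp3 each passed in 1 setting between Gja9_null and Gja9_het, and more values turned sign. In Gja9_null against wildtype the 1 member that passed, Htr7, became 0 with array means, no dye term, median centring, quantile normalization, cyclic loess, local centring, array means with local centring, only the 2 genotypes, without the dimmest 25% of features and with the brightest clone per gene, and 8 with no array block. At an unadjusted p the 6 members became 21 with no array block and 2 without the dimmest features. Drd5, Stx3, Stx2, Syt3 and Trpm7 lie among the dimmest 25% and were not in that last fit. The median over members became 0.0011 with median centring, 0.045 with quantile normalization, 0.043 with cyclic loess, 0.0099 with local centring with or without array means, and 0.047 without the dimmest features, and quantile normalization moved the median of all features from -0.10 to 0.02. In Gja9_het against wildtype the 2 members at an unadjusted p became 8 with no array block, 4 with local centring and 1 with array means, no dye term, median centring, without the dimmest features or with the brightest clone, and the 7 members without overlap became 13 with local centring. In Gja9_null against Gja9_het 14 members passed with no array block, where 26 had an unadjusted p under 0.05. Without the block the colours of an array count as independent samples, which bears on all features and not only on the members. The median became -0.12 with median centring, -0.0091 with cyclic loess, 7.01e-05 with quantile normalization and 0.0043 with local centring, with or without array means. Signs of 19, 10 and 21 members turned under at least 1 scaling in the 3 comparisons in this order. With the replicate block in place of dye, Drd5 passed between Gja9_null and Gja9_het (adjusted p = 0.0479), 1 member against 0, and no other count of calls changed. Samples of the same number did not deviate together between these 2 genotypes. Leaving out 1 sample or array gave 0 to 2 calls, 4 to 16 members at an unadjusted p, medians of -0.28 to 0.032 and 16 to 39 members without overlap in Gja9_null against wildtype. The ranges were 0 to 0, 1 to 3, -0.13 to 0.026 and 7 to 32 in Gja9_het against wildtype, and 0 to 4, 7 to 20, -0.29 to -0.11 and 21 to 43 in Gja9_null against Gja9_het. Without the second Gja9_null array, 2 members passed against wildtype (Htr7 and Ache) and 4 against Gja9_het, and without the first, 2 passed against Gja9_het. Each such fit holds only the other Gja9_null array, so the spread between the Gja9_null arrays does not enter the error. Shares over all features under these alternatives are not given here, so the counts do not set the members apart. The causes were not tested. With 2 arrays per genotype, the SE of members was 0.26 to 0.61, which limits what could be detected.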

Other observations

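A wider list of 106 synapse and excitability genes outside the symbol families, such as scaffolds, transmitter transporters and enzymes, active zone and endocytosis proteins, had 35 measured genes, and 0 passed the limma test in any comparison. Nlgn2 had the smallest unadjusted p of them in Gja9_het against wildtype, at 0.70 ± 0.30 (limma unadjusted p = 0.0325). In both comparisons with Gja9_null it was Slc1a3, the glutamate transporter of astrocytes and 1 of the 4 astrocyte markers measured. Its values were 2.82, 3.07, 1.94 and 2.36 in Gja9_null, 1.12, 1.36, 0.96 and 1.19 in Gja9_het, and 1.55, 1.72, 1.57 and 1.77 in wildtype. All 4 Gja9_null samples were above all others, and all Gja9_het samples were below all wildtype samples. Slc1a3 stood at 0.90 ± 0.31 in Gja9_null and -0.49 ± 0.31 in Gja9_het against wildtype, and at 1.39 ± 0.31 between Gja9_null and Gja9_het (limma adjusted p = 0.288, 1 and 0.0724).

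Dlgap1, a scaffold protein of excitatory synapses, stood at -0.93 ± 0.47 in Gja9_null and -0.44 ± 0.47 in Gja9_het against wildtype. Its Gja9_null values of -1.42, -1.04, 0.39 and 0.33 split by array. Sh3gl2, the endophilin of synaptic vesicle retrieval, had values of 0.11, 0.31, 0.15 and 0.16 in Gja9_null, 0.86, 0.80, 0.62 and 0.71 in Gja9_het, and 0.93, 0.89, 0.47 and 0.55 in wildtype. The Gja9_null samples were below all others, at -0.53 ± 0.29 from wildtype (limma adjusted p = 0.518). The median of the 35 genes was -0.02 in Gja9_null and 0.00 in Gja9_het against wildtype, and -0.15 between Gja9_null and Gja9_het, where all features had medians of -0.10, 0.03 and -0.17.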
